A study of Homo sapiens with 9 samples.

Results

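The genes described here are a panel of 34 human genes known as targets that the tumour suppressor p53 switches on, followed in MDA-MB-231 cells that had been given a small RNA. They were found as the probe sets that the array's annotation maps to 1 symbol only, that symbol being on the panel, and where a gene has several, the one brightest on average over all 9 arrays stands for it. This gave 32 of the 34 genes, on 85 probe sets, out of 19775 genes and 54613 probe sets in all. BTG2 and FDXR had no such probe set and were not analysed here.

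MDA-MB-231 is an established line from a triple-negative breast cancer, and the labels describe no genetic change made to it. Its cells were reverse transfected with Lipofectamine 2000, a lipid carrier, in 3 groups that differ in the small RNA alone: Qmimic, Dmimic or AllStar, the negative control, each at 10 nM. Total RNA was taken from each well 48 h later, with 3 biological replicates per group and 1 HG-U133 Plus 2.0 array per replicate. miR-34a, a microRNA, is in the title of the series, while the labels neither explain the letters Q and D nor give a sequence for either mimic, and all results hold for 1 cell line at 1 dose and 1 time.

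p53 is a transcription factor that is stabilised by DNA damage and other stress, binds paired copies of a short DNA motif and switches on genes for cell cycle arrest, DNA repair, metabolic adjustment and cell death. MDM2 marks p53 for destruction and MDM4 holds back its activity, so that the pathway restrains itself through its own targets. The gene of miR-34a is itself activated by p53, and MDM4 is among the messages reported as miR-34a targets.

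The mature microRNA named in the title is shown because a mimic of it would share its seed, bases 2 to 8, given in capitals. RefSeq places it at chr1:9151735-9151756 on the minus strand of GRCh38.p14.
hsa-miR-34a-5p: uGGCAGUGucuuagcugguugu

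The promoters of the panel were searched for the p53 half-site, the ten-letter motif that p53 binds as a pair, which reads the same on both strands. RefSeq promoter windows of 300 bases, 250 before to 50 after a transcription start, were available for 28 of the 34 genes. At least 1 half-site was found in 8 of these 28 genes (AEN, DDB2, EI24, FAS, FDXR, PLK2, RPS27L and SESN1). That is 28.6%, against 8.06% of all 27305 genes with such a window. By window it was 8 of 41, 19.5%, against 6.63% of all 35116 windows of that length. The panel was picked as known p53 targets, so this excess is not independent of that choice. A pair of half-sites no more than 13 bases apart occurred in 10 of the 35116 windows, of which DDB2 holds 1. Printed below are the windows of PLK2 and DRAM1, whose messages passed the test in 1 of the fits that follow, and of DDB2, which holds the pair, with half-sites in capitals and all else in lower case. The build is GRCh38.p14, and the windows are chr5:58460037-58460336 on the minus strand, chr12:101877330-101877629 on the plus strand and chr11:47214724-47215023 on the plus strand.
PLK2: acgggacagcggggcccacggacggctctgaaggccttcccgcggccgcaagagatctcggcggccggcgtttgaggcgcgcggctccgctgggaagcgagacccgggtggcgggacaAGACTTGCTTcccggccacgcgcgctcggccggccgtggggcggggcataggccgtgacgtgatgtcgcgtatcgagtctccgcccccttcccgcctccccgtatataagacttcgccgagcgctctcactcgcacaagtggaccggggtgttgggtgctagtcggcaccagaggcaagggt
DRAM1: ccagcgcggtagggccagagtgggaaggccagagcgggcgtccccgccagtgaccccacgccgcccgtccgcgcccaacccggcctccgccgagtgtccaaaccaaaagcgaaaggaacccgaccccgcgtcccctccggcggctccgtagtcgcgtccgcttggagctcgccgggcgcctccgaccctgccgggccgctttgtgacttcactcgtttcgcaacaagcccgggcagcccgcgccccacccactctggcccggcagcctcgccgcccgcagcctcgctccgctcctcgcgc
DDB2: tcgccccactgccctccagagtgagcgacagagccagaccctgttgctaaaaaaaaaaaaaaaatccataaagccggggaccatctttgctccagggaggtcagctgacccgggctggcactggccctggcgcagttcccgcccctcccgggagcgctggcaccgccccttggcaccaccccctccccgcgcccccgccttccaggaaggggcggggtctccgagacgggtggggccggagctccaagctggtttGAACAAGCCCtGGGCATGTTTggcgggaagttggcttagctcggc

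Counted from the start, the half-site of PLK2 begins at -132 and those of DDB2 at 5 and 16, and no half-site was found in the DRAM1 window. A match describes letters only, and a window without one says nothing of binding elsewhere in the gene.

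The quantity throughout is the log2 signal of a probe set after RMA, so a difference of 1 is a doubling. Precision is limited by having 3 arrays a group. The 95% half-width of a member's difference between Qmimic and AllStar was 0.18 to 0.61 on this scale over all 9 arrays. VIM (13.53 to 13.71 over the 9 arrays), CD44 (11.77 to 12.13) and LAMB3 (10.80 to 11.17) had high signals, and PGR (3.64 to 4.72), FOXA1 (3.74 to 4.17) and CDH1 (3.44 to 4.02), listed as low in this line, had low ones. ESR1 (6.74 to 7.45), ERBB2 (8.11 to 8.78) and GATA3 (7.45 to 8.61), listed with them, did not, and SPARC, listed as high, had 3.44 to 4.19. The keratins of luminal epithelium were high, KRT18 at 12.19 to 12.72, KRT19 at 11.56 to 12.36 and KRT8 at 10.22 to 10.90, and EPCAM had 7.25 to 8.36. Of the leukocyte markers PTPRC was low (3.73 to 4.46), while CD3E (5.24 to 5.98), CD14 (5.57 to 6.22) and CD79A (5.89 to 6.09) were in the middle range. Of the endothelial ones CDH5 was low (3.19 to 3.58), VWF had 4.74 to 5.47 and PECAM1 6.03 to 6.77. Fibroblast markers had 7.04 to 7.40 (COL1A1), 5.05 to 5.53 (COL1A2) and 5.13 to 5.95 (DCN). AllStar replicate 3 stood apart: it correlated with the other arrays at 0.974 to 0.981, against 0.993 to 0.998 among the rest, and its interquartile range was 2.99 against 3.41 to 3.53. Its probe sets for 18S ribosomal RNA averaged 8.73 against 5.27 to 6.26 on the others, and the part of this in the results was not tested. Results are therefore given with all 9 arrays and without AllStar 3.

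AllStar 3 was low for most of the panel. On it 28 of the 32 members lay below the mean of AllStar 1 and 2, with a median difference of -0.41, against -0.05 over all 19775 genes. The gap depended on the level: it was -0.48 for the 14 members at 6 to 8 (all genes there, -0.17), -0.60 for the 6 members at 8 to 10 (all genes, -0.42) and -0.29 for the 8 members at 10 or more (all genes, -0.31). The 4 members under 6 lay above instead, by a median of 0.39 (all genes, 0.23). For those 28 members a signed difference from AllStar is higher with AllStar 3 in the mean than without it. A difference that is positive without AllStar 3 is larger with it. One that is negative without it is smaller in size or turns positive, as for SFN with Qmimic (-0.11 without, 0.12 with). The map of signals against AllStar 1 and 2 shows AllStar 3 as a blue column.

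**Figure D1:**
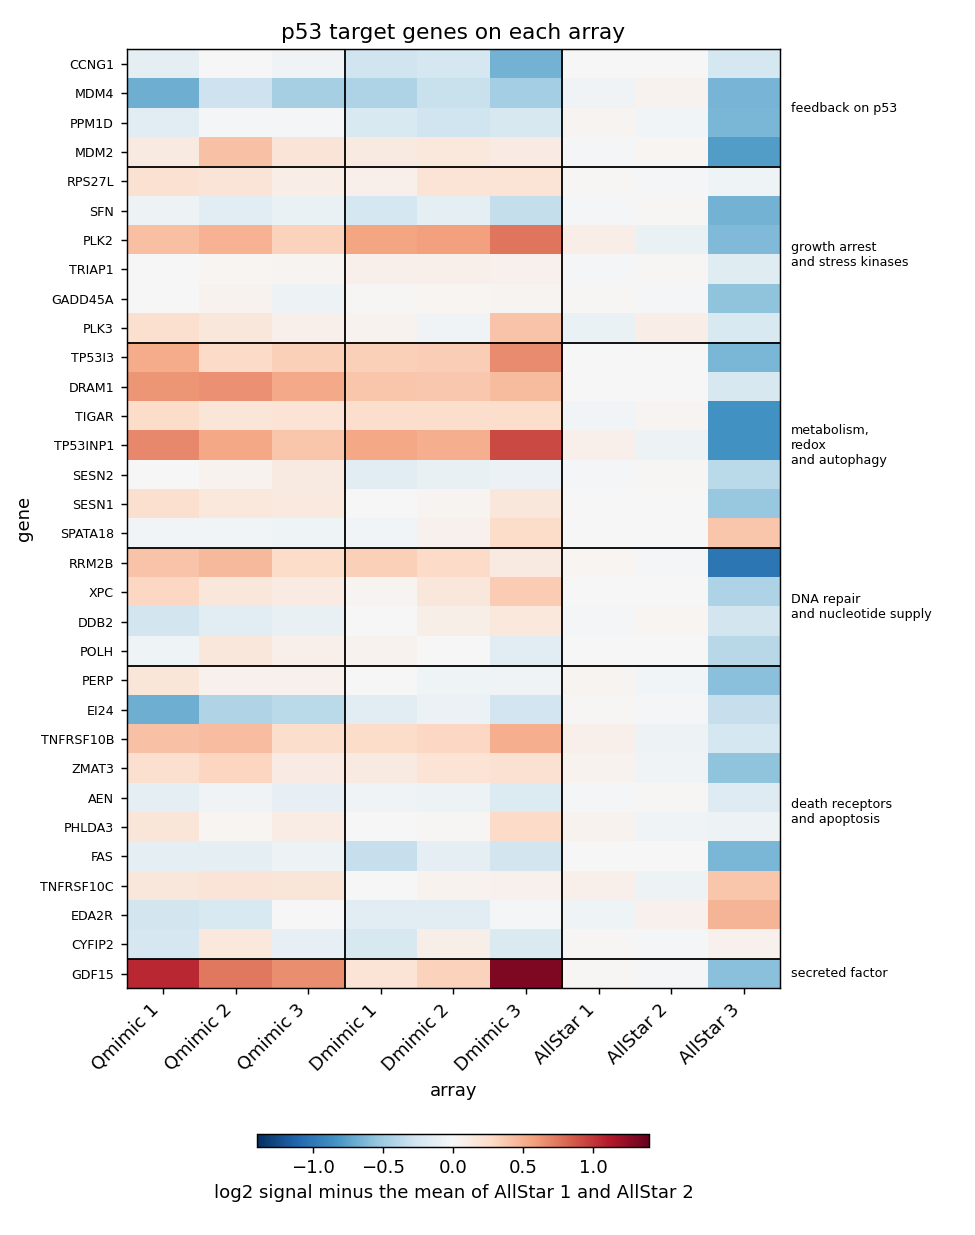
Log2 signal of 32 p53 target genes on each of the 9 arrays, minus the mean of AllStar 1 and AllStar 2, with genes grouped by role; red is higher and blue lower. DRAM1, PLK2, TP53INP1 and GDF15 are red on all 6 mimic arrays, and 28 of the 32 genes lie below zero on AllStar 3.

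With all 9 arrays, no member was called in any of the 4 comparisons, a call being a limma adjusted p under 0.05 over all probe sets and a change of at least 1.5-fold. The share of all genes called was 0% for Qmimic against AllStar, 0.0101% for Dmimic against AllStar, 0.131% for the mean of both mimics against AllStar and 0% for Qmimic against Dmimic. Members with an unadjusted limma p under 0.05 numbered 14 for Qmimic (all genes, 19.7%), 11 for Dmimic (17.3%), 14 for both mimics (24.1%) and 3 between the mimics (2.54%). An adjusted p under 0.05 at any size was reached by 0, 0, 1 and 0 members in these comparisons, against 0%, 0.0101%, 0.142% and 0% of all genes. In such bulk RNA, fewer cells of a kind and less RNA per cell cannot be told apart.

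Without AllStar 3 a few members passed. They were DRAM1 with Qmimic, 1 of 32 against 0.693% of all genes, and TP53INP1 and PLK2 with Dmimic, 2 of 32 against 1.27%. TP53INP1 was also called for the mean of both mimics, 1 of 32 against 1.04%, and no member differed between the mimics, where 0.0961% of all genes did. Counting an adjusted p under 0.05 at any size, there were 2 members for Qmimic (all genes, 2.09%), 3 for Dmimic (3.32%), 4 for both mimics (4.03%) and 0 between the mimics (0.288%). The unadjusted p was under 0.05 for 16 members with Qmimic (20.9%), 14 with Dmimic (21.3%), 18 for both (23%) and 8 between the mimics (11.7%).

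The panel's median difference was 0.18 for Qmimic and 0.16 for Dmimic with all 9 arrays, against -0.02 and -0.01 over all genes. Members on the higher side numbered 25 of 32 with Qmimic (all genes, 47.0%) and 21 of 32 with Dmimic (48.1%). Without AllStar 3 the medians were 0.10 for Qmimic and 0.07 for Dmimic, against -0.01 and 0.01 over all genes, with 20 of 32 members higher with either mimic (all genes, 47.9% and 52.6%). Repeating the quantile normalisation on all 9 arrays gave medians of 0.08 for Qmimic and 0.04 for Dmimic, and cyclic loess gave 0.06 and 0.02. Both mimics are compared with the same AllStar arrays, so their likeness is no separate evidence. The all-gene values set beside the comparisons with AllStar were not matched for level. A mean level under 6, where AllStar 3 was high, was found for 4 of the 32 members and for 8460 of all 19775 genes.

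On 12 members all 6 mimic arrays lay above all 3 AllStar arrays, 37.5% of the panel against 12.8% of all genes. These were MDM2, TP53INP1, PLK2, TNFRSF10B, TP53I3, TIGAR, RRM2B, XPC, ZMAT3, GDF15, RPS27L and DRAM1, and the same 12 lay above both AllStar arrays when AllStar 3 was left out (all genes, 14.8%). On 0 members did all 6 mimic arrays lie below all 3 AllStar arrays (all genes, 4.21%), while 5 did so without AllStar 3 (MDM4, FAS, AEN, SFN and EI24; all genes, 11.5%). Taken alone, Qmimic lay above all AllStar arrays on 14 members (19.2% of all genes) and below on 2 (11%), and Dmimic above on 13 (17.1%) and below on 0 (7.13%). Without AllStar 3 these were 15 above (22.6%) and 7 below (21.1%) for Qmimic, and 13 above (22%) and 8 below (17.8%) for Dmimic. A half-site was found for 2 of the 9 such higher members with a promoter window and for 5 of the 17 other measured members with one. The shares of all genes given here were not matched for level.

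Among the genes that act back on p53, MDM2 and MDM4 differed from AllStar with opposite signs, and no call was made in this group of 4. MDM2, the ligase that marks p53 for destruction, had log2 signals of 7.67, 7.96 and 7.73 with Qmimic, 7.68, 7.70 and 7.67 with Dmimic and 7.52, 7.58 and 6.77 with AllStar. The mimic arrays were all higher, by little against AllStar 1 and 2. The difference was 0.50 for Qmimic (limma adjusted p = 0.269) and 0.39 for Dmimic (adjusted p = 0.413), and without AllStar 3 it was 0.24 and 0.13 (adjusted p = 0.181 and 0.506). Of its 10 probe sets 8 were positive for the mean of both mimics without AllStar 3, over a range of -0.10 to 0.18.

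MDM4, the partner of MDM2 that holds back p53 activity, had 7.94, 8.33 and 8.16 with Qmimic, 8.19, 8.31 and 8.15 with Dmimic and 8.57, 8.66 and 7.97 with AllStar. The mimic arrays were lower than AllStar 1 and 2 and overlapped AllStar 3. The mean of both mimics differed from AllStar by -0.22 with all arrays (limma adjusted p = 0.393) and by -0.44 without AllStar 3 (95% interval -0.65 to -0.23, adjusted p = 0.0383), past the p threshold there at 1.36-fold, short of 1.5-fold. On 5 of its 6 probe sets the value without AllStar 3 was negative, down to -0.44, and the probe set used (225740_x_at) is of a type that can also bind related transcripts.

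CCNG1, a cyclin that recruits a phosphatase to MDM2, had 10.73, 10.85 and 10.80 with Qmimic, 10.57, 10.61 and 10.20 with Dmimic and 10.86, 10.85 and 10.61 with AllStar. Every Dmimic array was lower than every Qmimic array, and Dmimic 3 was the lowest of all. The Dmimic difference from AllStar was -0.31 (limma adjusted p = 0.339) and without AllStar 3 -0.39 (adjusted p = 0.0973), while that of Qmimic was 0.02 and -0.06. PPM1D, a phosphatase that dampens p53 signalling, averaged 8.03 ± 0.08 with Qmimic, 7.86 ± 0.04 with Dmimic and 7.88 ± 0.37 with AllStar (SD, n = 3 each), with AllStar 3 the lowest of all arrays. Its differences were 0.15 and -0.02 with all arrays and -0.07 and -0.24 without AllStar 3.

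Of the genes for growth arrest and stress kinases, 6 of 7 were measured. PLK2, a kinase of the centrosome and of stress responses (201939_at, its only probe set), had log2 signals of 10.81, 10.87 and 10.70 with Qmimic, 10.94, 10.96 and 11.14 with Dmimic and 10.48, 10.29 and 9.76 with AllStar. Both mimics lay above every AllStar array, and each Dmimic array lay above each Qmimic array. Without AllStar 3 PLK2 rose 1.55-fold with Dmimic (log2 0.63, 95% interval 0.43 to 0.83, limma adjusted p = 0.0142). Leaving out AllStar 1 as well gave 0.72 (adjusted p = 0.136), AllStar 2 as well 0.54 (adjusted p = 0.157) and Dmimic 3 as well 0.57 (adjusted p = 0.0212, under 1.5-fold), none of them a call. The call was also lost when only the groups compared were fitted (0.63, adjusted p = 0.0681) and with the replicate block (0.62, adjusted p = 0.0783). The value with all 9 arrays was larger, 0.83, with a wider interval (0.48 to 1.19, adjusted p = 0.101), and no call. For Qmimic it was 0.62 with all arrays and 0.41 without AllStar 3 (adjusted p = 0.191 and 0.0527).

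RPS27L, a ribosomal protein-like modulator of p53 turnover, had 11.52, 11.49 and 11.40 with Qmimic, 11.38, 11.50 and 11.50 with Dmimic and 11.33, 11.29 and 11.25 with AllStar. The mimic arrays were all higher, by less than 0.3. The mean of both mimics differed by 0.18 with all arrays and 0.16 without AllStar 3 (limma adjusted p = 0.233 and 0.216). A second RPS27L probe set, 222487_s_at, had 0.48 for Qmimic without AllStar 3 (adjusted p = 0.0290), under 1.5-fold.

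The other 4 genes of this role differed less. GADD45A, a growth arrest and repair protein, averaged 9.77 ± 0.06 with Qmimic, 9.81 ± 0.01 with Dmimic and 9.59 ± 0.32 with AllStar (SD, n = 3 each), and its differences were 0.18 and 0.22 with all arrays and -0.01 and 0.03 without AllStar 3. SFN, the 14-3-3 protein that holds cells before mitosis, differed by -0.11 with Qmimic and -0.24 with Dmimic without AllStar 3, and by 0.12 and -0.02 with it. PLK3, a kinase of the same family as PLK2, had 0.22 and 0.20, and TRIAP1, which restrains apoptosis at mitochondria, 0.08 and 0.12, with all 9 arrays. Without AllStar 3 these were 0.15 and 0.13 for PLK3 and 0.02 and 0.07 for TRIAP1. No limma adjusted p of these 4 genes was under 0.05 in either fit.

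The genes for metabolism, redox balance and autophagy held the highest group medians among the roles of more than 1 gene: 0.49 for Qmimic and 0.48 for Dmimic with all 9 arrays, and 0.20 and 0.25 without AllStar 3. DRAM1, a lysosomal membrane protein of p53-driven autophagy (218627_at, its only probe set), had 8.54, 8.56 and 8.45 with Qmimic, 8.31, 8.30 and 8.36 with Dmimic and 7.93, 7.91 and 7.69 with AllStar. The 3 groups did not overlap: Qmimic was highest, Dmimic next and AllStar lowest, and the AllStar 3 gap was small here. DRAM1 rose 1.51-fold with Qmimic without AllStar 3 (log2 0.60, 95% interval 0.45 to 0.74, limma adjusted p = 0.00491). Leaving out AllStar 1 as well gave 0.60 (adjusted p = 0.117), AllStar 2 as well 0.59 (adjusted p = 0.0799) and Qmimic 2 as well 0.58 (adjusted p = 0.0310), none of them a call. Repeated quantile normalisation (0.57, adjusted p = 0.00468) and cyclic loess (0.56, adjusted p = 0.00569) also brought it under 1.5-fold. With all 9 arrays the same difference was 0.67 (adjusted p = 0.111) and that of Dmimic 0.48 (adjusted p = 0.0973). The mean of both mimics was the one member value past the p threshold with all 9 arrays, 0.58 (95% interval 0.40 to 0.75, adjusted p = 0.0420), at 1.49-fold, just short of 1.5-fold.

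TP53INP1, a partner of p53 in apoptosis and autophagy (225912_at), had 8.08, 7.94 and 7.79 with Qmimic, 7.95, 7.91 and 8.33 with Dmimic and 7.47, 7.34 and 6.55 with AllStar. The mimic arrays were all higher, Dmimic 3 the highest and AllStar 3 the lowest by far. Without AllStar 3 it rose 1.58-fold with Dmimic (log2 0.66, 95% interval 0.37 to 0.94, limma adjusted p = 0.0333) and 1.51-fold for the mean of both mimics (adjusted p = 0.0276). The Dmimic call was lost on leaving out AllStar 1 as well (0.73, adjusted p = 0.195), AllStar 2 (0.59, adjusted p = 0.241), Qmimic 2 (0.66, adjusted p = 0.0662) or Dmimic 3 (0.52, adjusted p = 0.0403, under 1.5-fold). That for both mimics was lost without the same arrays or Qmimic 1, at 0.53 to 0.66 (adjusted p = 0.0114 to 0.273). The Dmimic call was also lost when only the groups compared were fitted (adjusted p = 0.103), with the replicate block (0.63, adjusted p = 0.120) and on the mean of the probe sets (0.19, adjusted p = 0.148). The call for both mimics was also lost with the block (0.57, adjusted p = 0.111), on the mean of the probe sets (0.12, adjusted p = 0.281), and, by size alone, under repeated quantile normalisation, cyclic loess and array weights (0.57 each). The Qmimic value was 0.53 (adjusted p = 0.0663). With all 9 arrays it was 0.82 for Qmimic and 0.94 for Dmimic (adjusted p = 0.193 and 0.144). Its other 2 probe sets, at mean levels of 5.65 and 3.47, had -0.15 and -0.09 for both mimics without AllStar 3, and the call rests on 1 of 3 probe sets.

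TP53I3, an oxidoreductase that produces reactive oxygen, had 9.08, 8.82 and 8.89 with Qmimic, 8.89, 8.90 and 9.22 with Dmimic and 8.55, 8.56 and 7.91 with AllStar. All mimic arrays were above all AllStar arrays. The differences were 0.59 and 0.66 with all arrays and 0.37 and 0.45 without AllStar 3 for Qmimic and Dmimic, with limma adjusted p of 0.113 and 0.0639 in that second fit. TIGAR, a phosphatase that diverts glucose from glycolysis, had 8.11, 8.03 and 8.05 with Qmimic, 8.11, 8.10 and 8.10 with Dmimic and 7.82, 7.89 and 7.02 with AllStar. It was higher on every mimic array, but most of its 9-array difference (0.49 and 0.53) lay in AllStar 3, and 0.20 and 0.25 remained without it (adjusted p = 0.131 and 0.0756).

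The sestrins, stress proteins that restrain mTORC1, differed little: SESN1 by 0.35 with Qmimic and 0.24 with Dmimic over all arrays, and by 0.17 and 0.06 without AllStar 3. SESN2 differed by 0.18 and 0.01 with all arrays and by 0.06 and -0.11 without AllStar 3. SPATA18, which takes part in mitochondrial quality control, had a mean level under 6, where AllStar 3 was high, and differed by -0.18 and -0.04 over all arrays and by -0.05 and 0.09 without AllStar 3. None of these 3 had a limma adjusted p under 0.05.

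**Figure D2:**
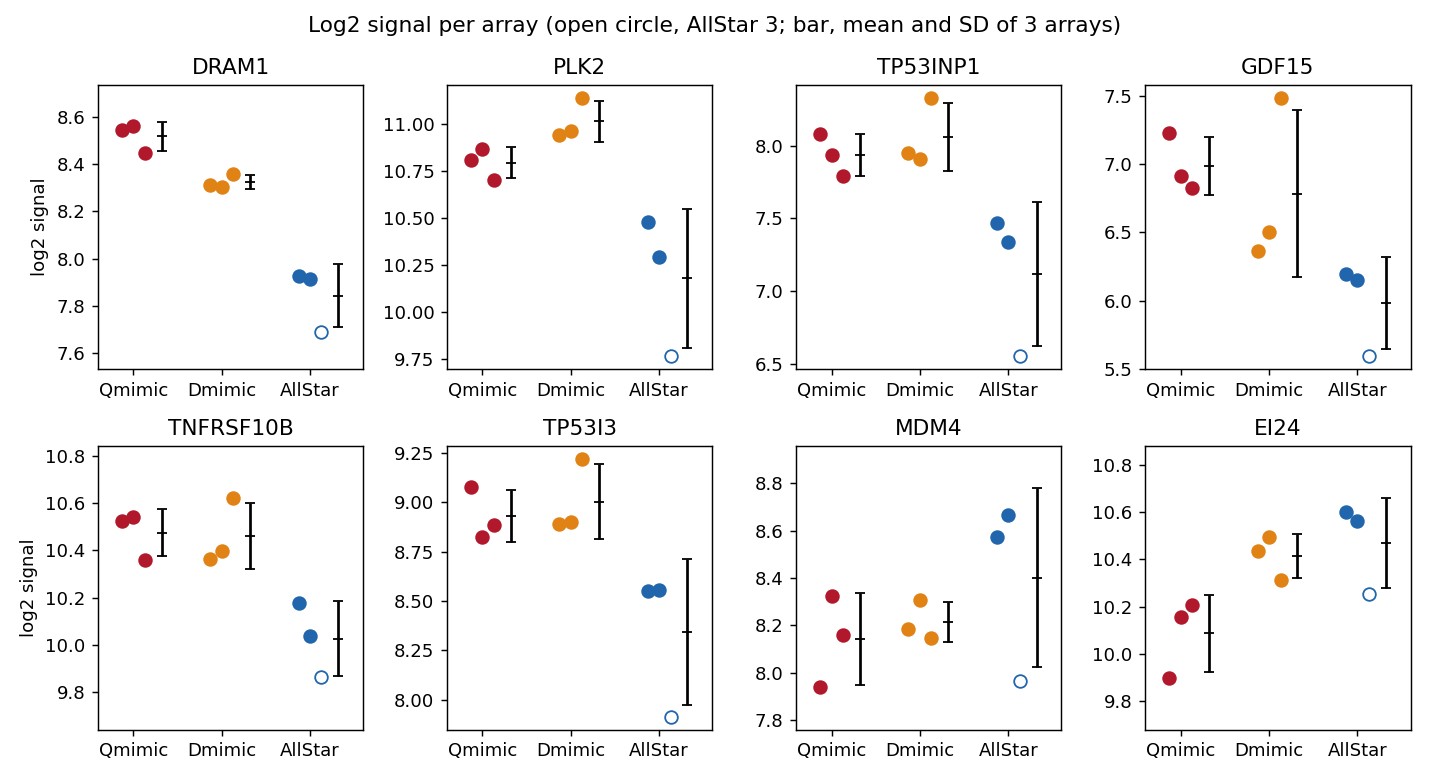
Log2 signal per array for 8 members with Qmimic, Dmimic and AllStar (open circle, AllStar 3), with the mean and SD of 3 arrays as a bar; each panel has its own vertical range. DRAM1, PLK2, TP53INP1, GDF15, TNFRSF10B and TP53I3 have every mimic array above every AllStar array, while MDM4 is lower than AllStar 1 and 2 only and EI24 is lowest with Qmimic.

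Among the genes of DNA repair and nucleotide supply, RRM2B, the ribonucleotide reductase subunit used outside S phase, had 8.38, 8.43 and 8.24 with Qmimic, 8.31, 8.25 and 8.11 with Dmimic and 8.0, 7.95 and 6.96 with AllStar. AllStar 3 was 1.02 below the mean of AllStar 1 and 2, the deepest drop of the panel, and the mimic arrays exceeded AllStar 1 and 2 by less. The differences were 0.71 and 0.58 with all arrays for Qmimic and Dmimic, and 0.37 and 0.24 without AllStar 3 (limma adjusted p = 0.0564 and 0.158). XPC, which recognises distorted DNA, had 8.19, 8.06 and 8.02 with Qmimic, 7.94, 8.05 and 8.25 with Dmimic and 7.88, 7.91 and 7.46 with AllStar. Its mimic arrays were all higher, some by a few hundredths only, and its differences were 0.34 and 0.33 with all arrays and, without AllStar 3, 0.19 and 0.18 (adjusted p = 0.316 and 0.360).

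DDB2, the damage sensor of ultraviolet lesions whose promoter holds the paired half-site, had 7.65, 7.75 and 7.81 with Qmimic, 7.91, 7.99 and 8.06 with Dmimic and 7.88, 7.94 and 7.66 with AllStar. Every Qmimic array lay below every Dmimic array, and AllStar overlapped both. The difference from AllStar was -0.09 for Qmimic and 0.16 for Dmimic (limma adjusted p = 0.606 and 0.495), and without AllStar 3 it was -0.17 and 0.08. POLH, a polymerase that copies past such lesions, differed by 0.18 and 0.09 with all arrays and by 0.05 and -0.04 without AllStar 3.

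In the group of 10 genes for death receptors and apoptosis, TNFRSF10B, a receptor of the death ligand TRAIL, had 10.52, 10.54 and 10.36 with Qmimic, 10.36, 10.40 and 10.62 with Dmimic and 10.18, 10.04 and 9.86 with AllStar. All mimic arrays were higher than all AllStar arrays, and AllStar 3 stood off by little. The mean of both mimics differed by 0.44 with all arrays (limma adjusted p = 0.0903) and 0.36 without AllStar 3 (95% interval 0.17 to 0.55, adjusted p = 0.0529). The other 3 of its 4 probe sets had -0.14 to -0.02 there.

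ZMAT3, an RNA-binding protein that takes part in p53 tumour suppression, had 8.55, 8.62 and 8.44 with Qmimic, 8.45, 8.52 and 8.54 with Dmimic and 8.37, 8.28 and 7.77 with AllStar. Its mimic arrays were all higher, some narrowly. The differences were 0.40 and 0.37 with all arrays and, without AllStar 3, 0.21 and 0.18 (limma adjusted p = 0.172 and 0.251), and all 5 probe sets were positive for the mean of both mimics, at 0.05 to 0.26. EI24, a membrane protein of the endoplasmic reticulum linked to apoptosis and autophagy, had 9.90, 10.15 and 10.21 with Qmimic, 10.44, 10.49 and 10.31 with Dmimic and 10.60, 10.56 and 10.25 with AllStar. Qmimic was lowest and did not overlap the other 2 groups. The Qmimic difference was -0.38 with all arrays (adjusted p = 0.229) and -0.49 without AllStar 3 (95% interval -0.71 to -0.28, adjusted p = 0.0375), past the p threshold at 1.41-fold, under 1.5-fold. For Dmimic it was -0.06 and -0.17, and both EI24 probe sets were negative.

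The remaining apoptosis genes had no limma adjusted p under 0.05 on the probe set used. FAS, the receptor of the Fas ligand, averaged 6.61 ± 0.03 with Qmimic, 6.48 ± 0.10 with Dmimic and 6.50 ± 0.37 with AllStar (SD, n = 3 each). It differed by -0.10 with Qmimic and -0.23 with Dmimic without AllStar 3, and by 0.11 and -0.02 with it. Another FAS probe set, 215719_x_at, had -0.38 with Dmimic without AllStar 3 (limma adjusted p = 0.0336, under 1.5-fold). PERP, a desmosome protein, differed by 0.10 and -0.04 in that fit and by 0.29 and 0.16 with all arrays. PHLDA3, which opposes AKT at the membrane, differed by 0.10 and 0.09 without AllStar 3 and by 0.13 and 0.12 with it.

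AEN, a nuclease of apoptosis, differed by -0.10 with Qmimic and -0.10 with Dmimic without AllStar 3, and by -0.04 and -0.05 with it. TNFRSF10C, a decoy receptor of TRAIL, EDA2R, a receptor of ectodysplasin, and CYFIP2, a regulator of actin, had mean levels under 6. Their differences in that fit were 0.17 and 0.03 for TNFRSF10C, -0.16 and -0.11 for EDA2R, and -0.07 and -0.11 for CYFIP2. Over all 9 arrays they were 0.04 and -0.10 for TNFRSF10C, -0.32 and -0.27 for EDA2R and -0.09 and -0.14 for CYFIP2.

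GDF15, a secreted stress cytokine (221577_x_at, a type of probe set that can also bind related transcripts), had 7.23, 6.91 and 6.82 with Qmimic, 6.36, 6.50 and 7.49 with Dmimic and 6.20, 6.15 and 5.59 with AllStar. All mimic arrays were higher than all AllStar arrays, but Dmimic 3 lay 1.05 above the mean of Dmimic 1 and 2. The Qmimic difference was 1.01 with all arrays (95% interval 0.39 to 1.62, limma adjusted p = 0.202) and 0.81 without AllStar 3 (adjusted p = 0.145). The Dmimic difference was 0.80 and 0.61 (adjusted p = 0.284 and 0.278). Leaving out Dmimic 3 as well as AllStar 3 gave 0.26 for Dmimic, and for Qmimic the same 0.81 with an adjusted p of 0.00715, a call. The other 2 GDF15 probe sets, at mean levels of 4.36 and 4.10, had -0.01 and -0.02 for both mimics without AllStar 3.

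**Figure D3:**
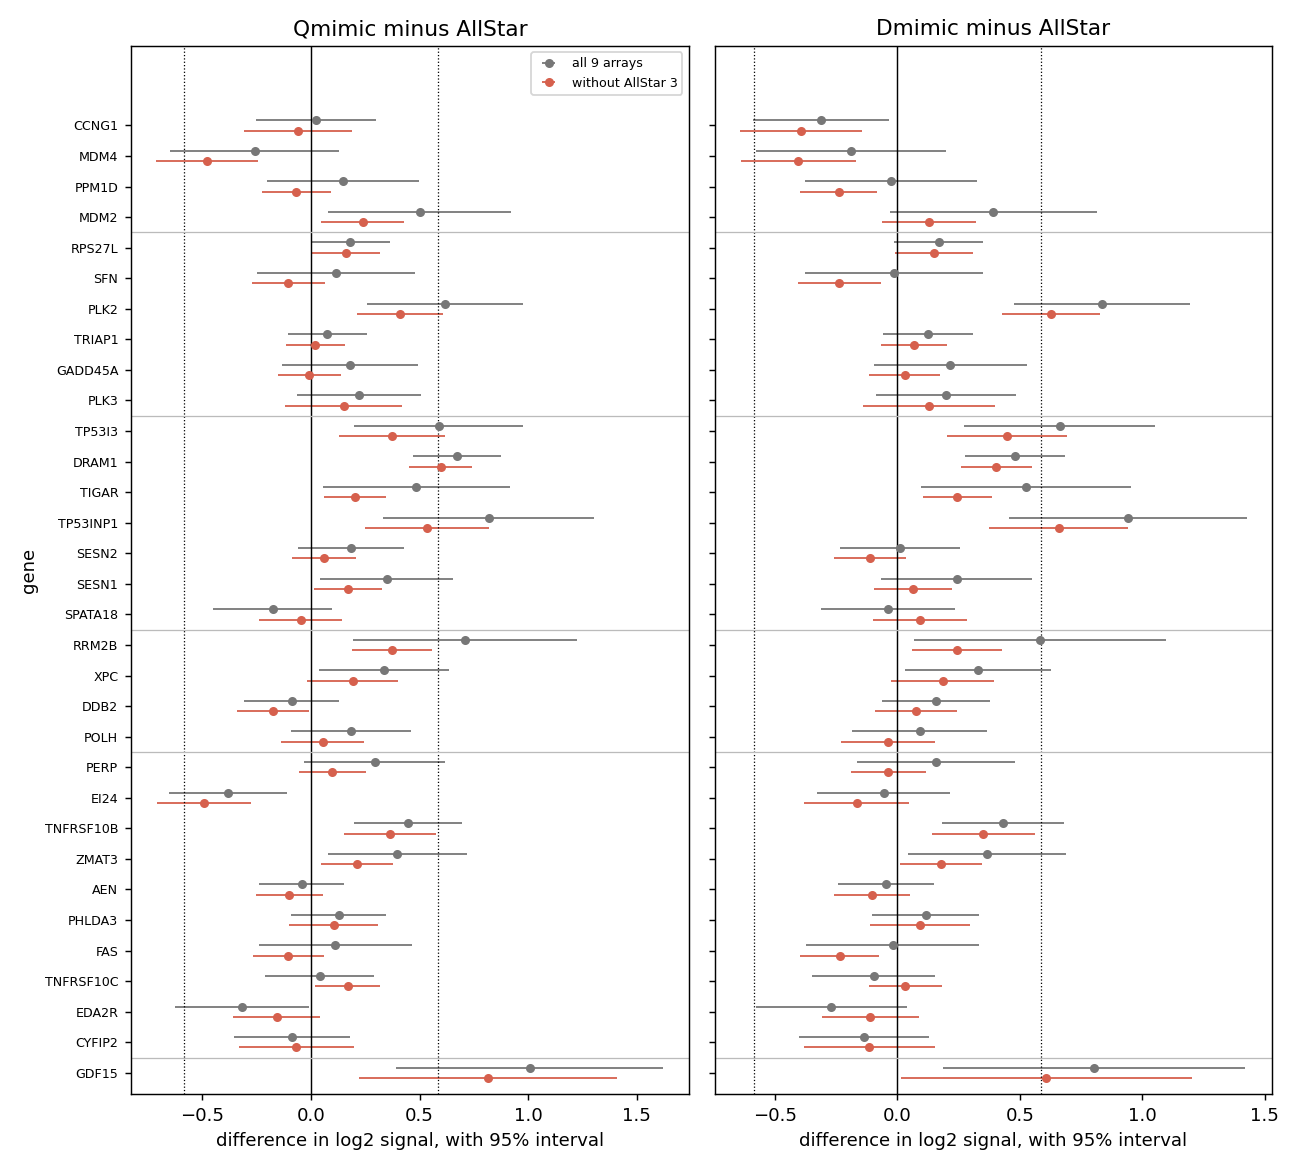
Difference in log2 signal of Qmimic and of Dmimic from AllStar for the 32 genes, with 95% intervals, over all 9 arrays (grey) and without AllStar 3 (red); dotted lines mark 1.5-fold. Without AllStar 3 most points move toward zero and the intervals shorten, and DRAM1 with Qmimic and TP53INP1, PLK2 and GDF15 with Dmimic lie past the upper dotted line, GDF15 also with Qmimic.

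The probe sets of a gene did not always tell the same story, which the plot of probe sets by level shows. Of the 3 called genes DRAM1 and PLK2 have 1 probe set each, and TP53INP1 was called on 1 of 3. For TNFRSF10B, GDF15 and TP53INP1 only the probe set used for the gene lay above zero without AllStar 3, although 3 of the 4 TNFRSF10B probe sets did with all 9 arrays.

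**Figure D4:**
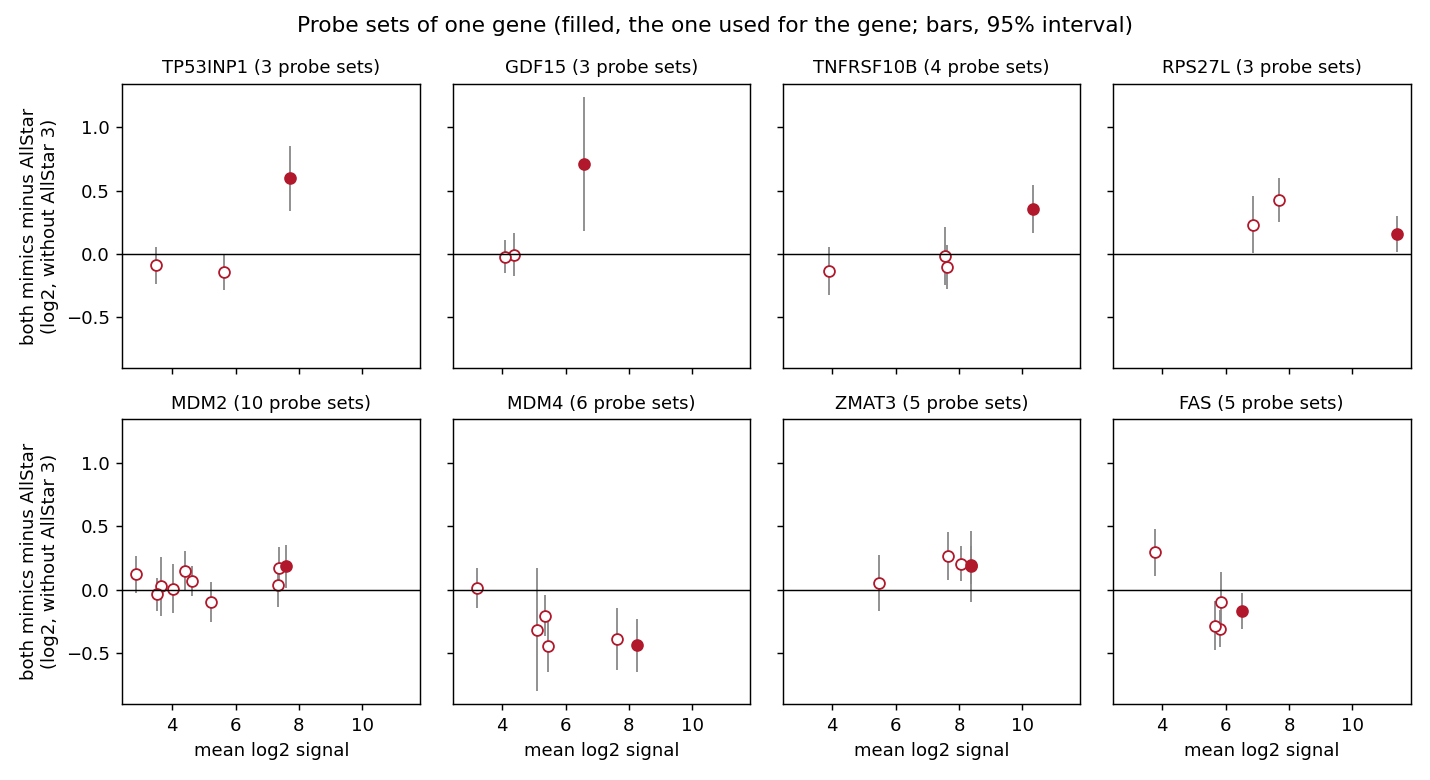
Difference of the mean of both mimics from AllStar (log2, without AllStar 3, with 95% intervals) against mean log2 signal for every probe set of 8 genes; the filled point is the probe set used for the gene. For TP53INP1, GDF15 and TNFRSF10B the filled point lies above zero and the rest near it, whereas all 5 ZMAT3 points are positive and 5 of 6 MDM4 points are negative.

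Qmimic and Dmimic were compared directly because both are set against the same AllStar arrays. Every Qmimic array lay above every Dmimic array on 7 members (SESN2, FAS, TNFRSF10C, PPM1D, CCNG1, PERP and DRAM1), 21.9% of the panel against 8.12% of all genes. Every Qmimic array lay below every Dmimic array on 4 (PLK2, DDB2, TRIAP1 and EI24), 12.5% against 9.4%. Here too the shares of all genes were not matched for level. With all 9 arrays the 3 members with an unadjusted limma p under 0.05 were CCNG1 (0.33, 95% interval 0.06 to 0.61), EI24 (-0.33, -0.60 to -0.06) and DDB2 (-0.25, -0.47 to -0.03), and every adjusted p was 1.00. Without AllStar 3 the smallest adjusted p was 0.211, for EI24. The difference was 0.19 for DRAM1 (95% interval 0.06 to 0.32), -0.22 for PLK2 (-0.40 to -0.04) and -0.12 for TP53INP1 (-0.38 to 0.13), so a call with one mimic and not the other is not shown to be a difference between the mimics.

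Dmimic 3 differed from Dmimic 1 and 2 on part of the panel. It was more than 0.2 above their mean on PLK3, TP53I3, TP53INP1, SPATA18, XPC, TNFRSF10B, PHLDA3 and GDF15. On CCNG1 it was more than 0.2 below their mean (-0.39). The same was not counted over all genes, so this is not shown to be particular to the panel.

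Other genes of the pathway were read in 3 lists written from general knowledge. Of 54 further genes that p53 activates, 52 were measured, and their medians were 0.19 for Qmimic and 0.17 for Dmimic with all 9 arrays, close to those of the panel, and 0.08 and 0.04 without AllStar 3. No gene of the list was called over all 9 arrays. Without AllStar 3 none was called higher with either mimic, 1 was called lower with Qmimic and 2 were called lower with Dmimic, where 0.693% and 1.27% of all genes were called in either direction. These were ORAI3, a calcium channel subunit (-0.59 with Qmimic, limma adjusted p = 0.0119), CDIP1, a pro-apoptotic membrane protein (-0.73 with Dmimic, adjusted p = 0.0308), and TGFA, a growth factor that binds EGFR (-0.61 with Dmimic, adjusted p = 0.0439, named after its value was seen). The same differences with all 9 arrays were -0.55 for ORAI3, -0.55 for CDIP1 and -0.36 for TGFA.

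CDKN1A, the cyclin-dependent kinase inhibitor p21 and the best known p53 target for arrest, had 9.73, 9.74 and 9.74 with Qmimic, 9.57, 9.72 and 9.59 with Dmimic and 10.18, 10.13 and 9.99 with AllStar. Every mimic array was below every AllStar array, AllStar 3 included. The differences were -0.36 and -0.47 with all arrays (limma adjusted p = 0.183 and 0.0924) and -0.42 and -0.53 without AllStar 3 (adjusted p = 0.0214 and 0.0107), past the p threshold and under 1.5-fold. BAX, a pore-forming protein of mitochondrial apoptosis, differed by -0.08 and -0.01 without AllStar 3, and PMAIP1, a BH3-only protein, by 0.14 and 0.06. With all arrays BAX had 0.16 and 0.23 and PMAIP1 0.32 and 0.25. BBC3 was not analysed here, having no probe set of its own.

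In the same list and fit, BLOC1S2, a subunit of a lysosome-positioning complex, had -0.52 with Qmimic (limma adjusted p = 0.0115) and 0.05 with Dmimic. The vesicle fusion protein STX6 had 0.42 with Qmimic (adjusted p = 0.0323). With Dmimic the cytokine LIF had 0.57 (adjusted p = 0.0380) and the ligand KITLG -0.53 (adjusted p = 0.0177). All 4 were under 1.5-fold, and with all 9 arrays the same differences were -0.42 for BLOC1S2, 0.61 for STX6, 0.59 for LIF and -0.43 for KITLG.

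Of 31 upstream regulators and partners of p53, 25 were measured, with medians of 0.12 for Qmimic and 0.02 for Dmimic over all arrays and 0.03 and -0.01 without AllStar 3. No gene of this list was called with all 9 arrays. CHEK1, a checkpoint kinase, was called lower with Dmimic without AllStar 3 (-0.64, limma adjusted p = 0.0299, against -0.36 with all 9 arrays), having 8.83, 9.02 and 9.03 with Qmimic, 8.86, 8.85 and 8.46 with Dmimic and 9.39, 9.35 and 8.52 with AllStar. In that fit EP300, a co-activator of p53, had 0.32 with Qmimic (adjusted p = 0.0941), and TP53BP1, a damage adaptor, 0.25 with Dmimic (adjusted p = 0.112). In the same fit SETD7, a methyltransferase that modifies p53, had 0.21 with Qmimic, and RCHY1, a ubiquitin ligase of p53, 0.22 (adjusted p = 0.107 and 0.131). Also without AllStar 3, the checkpoint kinase CHEK2 had -0.42 with Dmimic and MTBP, which binds MDM2, -0.43 (adjusted p = 0.0862 and 0.116). The same differences over all 9 arrays were 0.53 for EP300, 0.42 for TP53BP1, 0.33 for SETD7, 0.42 for RCHY1, -0.25 for CHEK2 and -0.27 for MTBP.

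Genes of cell division that p53 lowers through p21 and the DREAM repressor complex lay below AllStar nearly throughout: 25 of 26 measured (of 27 listed) with Qmimic and 26 of 26 with Dmimic over all arrays, against 10471 and 10272 of all 19775 genes. Their medians were -0.32 and -0.43 with all 9 arrays and -0.41 and -0.55 without AllStar 3, against -0.01 and 0.01 over all genes in that fit. None was called with all 9 arrays. Without AllStar 3, 0 were called with Qmimic (all genes, 0.693%) and 2 with Dmimic (1.27%): CHEK1, which is also an upstream kinase on the preceding list, and MCM5, a subunit of the replicative helicase (-0.82, limma adjusted p = 0.0430, against -0.62 with all 9 arrays). CCNA2, the cyclin of S phase, had 9.59, 9.91 and 10.08 with Qmimic, 9.86, 10.08 and 9.10 with Dmimic and 10.61, 10.63 and 10.24 with AllStar. Every mimic array was below every AllStar array, and Dmimic 3 was the lowest of all. Its differences were -0.63 and -0.82 with all arrays and, without AllStar 3, -0.76 and -0.94 (limma adjusted p = 0.130 and 0.0690), and those of MYBL2, a transcription factor of cycling cells, -0.62 and -0.87 (adjusted p = 0.135 and 0.0510; -0.55 and -0.81 with all arrays).

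**Figure D5:**
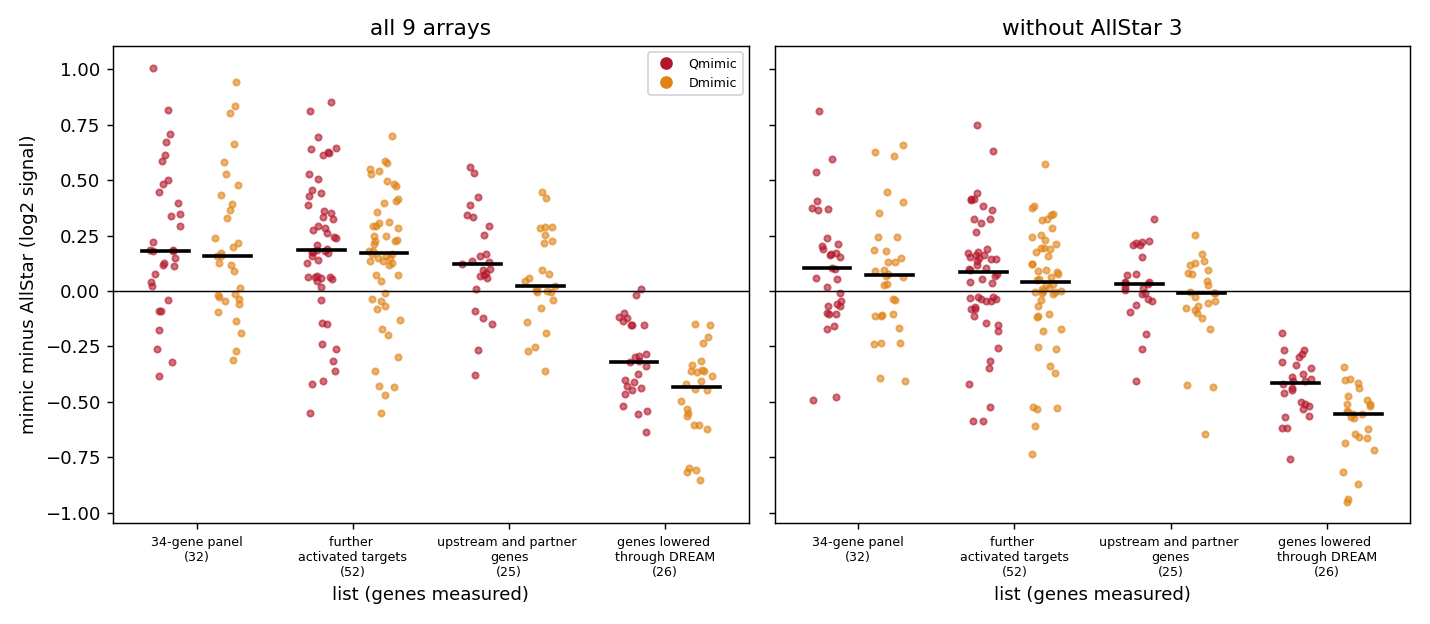
Difference in log2 signal from AllStar for each gene of the panel and of 3 further lists, Qmimic left and Dmimic right within a list, with the median as a black line, over all 9 arrays and without AllStar 3. The panel and the further activated targets have medians of 0.16 to 0.19 over all 9 arrays and 0.04 to 0.10 without AllStar 3, and the genes lowered through DREAM have medians of -0.32 to -0.55.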

How the data were processed

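RMA had turned the arrays into the log2 values that the authors deposited, 1 for each probe set and array, per the series text and the submitters' processing notes, which also name limma. The 62 control probe sets were set aside, leaving 54613, of which 41091 map to 1 symbol and 1801 to several. All 3 groups entered a single linear model (limma 3.58.1, R 4.3.3), once with 9 arrays and once without AllStar replicate 3, with moderated statistics (eBayes, no trend) and Benjamini-Hochberg adjustment over all probe sets. The code was tested on simulated data. A gene was called at an adjusted p under 0.05 and at least 1.5-fold. Members and lists were chosen with earlier results of these data known. All 34 members are named. Values per array are given for members called in either fit, for those whose 6 mimic arrays lie on one side of all AllStar arrays, for MDM2, CCNG1 and ZMAT3, and for the 3 highest and 3 lowest members of each mimic at a mean level of at least 6. From the lists CDKN1A, BAX and PMAIP1 are named, and up to 4 genes per list and mimic with the smallest adjusted p without AllStar 3. Whether arrays of equal number belong together was checked on their deviations from the group means. The correlation ran from -0.28 to 0.22 and passed 0.1 in 3 of 9 pairs. The labels state no pairing, which so few arrays cannot exclude, and the main fit used no block. The alternatives were other fold thresholds, a replicate block, each array left out, only the groups compared, repeated quantile normalisation, cyclic loess, median centring, the upper 50% of probe sets, an intensity trend, array weights and the mean of a gene's probe sets. Applying them without AllStar 3 too was chosen after seeing the data.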

Additional observations from a re-analysis of the deposited data

How the results depend on the processing

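No member value that passed both thresholds changed its direction under any alternative, and the panel medians against AllStar stayed positive in every setting run, at 0.06 to 0.25 for Qmimic and 0.02 to 0.21 for Dmimic over all 9 arrays. The counts of called members depended on AllStar 3 and on the settings named here. With all 9 arrays they were 0 in each comparison, against 1 for Qmimic, 2 for Dmimic and 1 for the mean of both mimics without that array. Leaving out any other single array from the 9 gave no call. Also with all 9 arrays, dropping the fold threshold gave 1 for both mimics (DRAM1), repeated quantile normalisation 1 for Dmimic and 1 for both (PLK2), cyclic loess 1 for Dmimic (PLK2) and 1 for both (TP53INP1), and array weights, whose fit stopped before its set tolerance, 2 for Qmimic (DRAM1 and GDF15), 2 for Dmimic and 2 for both. Qmimic against Dmimic gave 0 in all settings run.

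Without AllStar 3, a log2 change of at least 1.5 left 0 calls for Qmimic, Dmimic and both mimics, while dropping the fold threshold gave 2 for Qmimic, 3 for Dmimic and 4 for both. The replicate block, on numbers not known to pair the arrays, gave 1 for Qmimic, 0 for Dmimic and 0 for both, and 0 everywhere with all 9 arrays. Leaving out 1 further array gave 0 to 2 for Qmimic, 0 to 2 for Dmimic and 0 to 1 for both, and without AllStar 1 or AllStar 2, where the lone AllStar array is assumed to vary like the other groups, 0 in each. Without Qmimic 2 the counts were 0, 1 and 0, without Dmimic 3 they were 2, 0 and 0, and without Qmimic 1 the count for both mimics was 0. Fitting only the groups compared gave 2 for Qmimic and 0 for Dmimic. Repeated quantile normalisation and cyclic loess each gave 0 for Qmimic and 0 for both, array weights 0 for both, and the mean of a gene's probe sets 1 for Dmimic, 0 for both and a Qmimic median of 0.018. The cause was not tested in any of these.

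Of 2396 recomputed member values in that fit, 31 lost a call, 7 gained one and 64 uncalled ones changed sign, the rest keeping their direction and side of the threshold; of 2524 with all 9 arrays, 15 gained a call and 122 uncalled ones changed sign.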
